A study of Mus musculus with 8 samples.

Results

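The transcripts described here are those of 8 genes of cholesterol synthesis and its control, *Hmgcs1*, *Idi1*, *Fdft1*, *Sqle*, *Lss*, *Cyp51*, *Insig1* and *Srebf2*. They were taken by symbol from a table of raw read counts of 37310 genes. *Hmgcs1*, the enzyme that makes HMG-CoA, has no row under that symbol in this table and its expression was not analysed here, so 7 of the 8 genes were measured, and all 7 passed the filter on low counts. The counts come from 8 RNA sequencing libraries of NMuMG, an epithelial cell line from normal mouse mammary gland, in 4 groups of 2 replicates. Control cells and cells labelled knockout for the long non-coding RNA *Lnc-Nr6a1* (KO) were each sequenced untreated and after 2 h with TGF-β1 at 10 ng/ml. All cells grew in medium with serum and insulin. The labels describe a wash with phosphate-buffered saline before TGF-β1 and do not say whether untreated cells were washed. Per the study's methods, the deletion was made with CRISPR-Cas9 and clones were grown from individually sorted cells; the labels do not say which clone gave which library, so the genotype and the clone cannot be told apart.

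Cells make cholesterol from acetyl-CoA through mevalonate, the isoprenoid pyrophosphates, squalene and lanosterol. The genes of this route are transcribed under SREBP2, the product of *Srebf2*. SREBP2 is made as a membrane protein of the endoplasmic reticulum and is carried by SCAP to the Golgi for cleavage when sterols are low, and INSIG1 and INSIG2 hold the complex back when sterols are high. *Insig1* is itself an SREBP target, as are genes of cholesterol uptake, so synthesis and uptake usually move together. SREBP1, from *Srebf1*, acts mainly on genes of fatty acid synthesis.

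SREBPs bind sterol regulatory elements (SREs) close to start sites, often beside a CCAAT box or a GC box. RefSeq promoter windows on GRCm38.p6, each of 250 bases before and 50 after a start site, were matched by symbol for 6 of the 8 genes. They were searched on both strands for TCACNCCAC, an SRE, for CCAAT and for GGGCGG, a GC box. The CCAAT box was found in 6 of 6 windows, against 37.4% of all windows in the table, and the GC box in 6 of 6 against 35.7%. The SRE was found in 1 of 6, that of *Hmgcs1*, against 1.24%. Its first 8 letters, a shorter search added after the windows had been read and overlapping the SRE, were also found in *Srebf2*, against 4.36% of all windows. Of 12 other sterol synthesis enzymes with at least 1 matched window, 11 held a CCAAT box in any of them, 11 a GC box and 0 the SRE, against 41.1%, 38.2% and 1.44% of all genes counted in this way, and the first 8 letters were found in 1, *Msmo1*. Both windows of the 8 genes with SRE letters are shown, with those of *Cyp51*, the 1 gene of the 7 that passed the test, and *Insig1*, the gene that varied most between replicates in 3 of the 4 groups. Each is the 250 bases before the start site, 5′ to 3′ in the direction of transcription, with SRE letters and CCAAT boxes (ATTGG where on the other strand) in capitals.
Hmgcs1, chr13:119690101-119690350, plus strand: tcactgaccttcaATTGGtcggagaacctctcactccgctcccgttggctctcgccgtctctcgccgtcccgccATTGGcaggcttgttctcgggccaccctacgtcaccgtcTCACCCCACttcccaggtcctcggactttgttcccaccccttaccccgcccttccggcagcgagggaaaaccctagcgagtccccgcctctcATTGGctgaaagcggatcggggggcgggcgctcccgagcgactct
Srebf2, chr15:82147019-82147268, plus strand: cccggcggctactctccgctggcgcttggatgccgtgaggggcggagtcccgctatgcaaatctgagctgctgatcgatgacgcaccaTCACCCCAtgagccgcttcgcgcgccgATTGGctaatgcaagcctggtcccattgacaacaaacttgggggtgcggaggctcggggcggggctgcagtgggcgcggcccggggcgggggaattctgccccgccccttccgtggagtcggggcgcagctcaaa
Cyp51, chr5:4104698-4104947, minus strand: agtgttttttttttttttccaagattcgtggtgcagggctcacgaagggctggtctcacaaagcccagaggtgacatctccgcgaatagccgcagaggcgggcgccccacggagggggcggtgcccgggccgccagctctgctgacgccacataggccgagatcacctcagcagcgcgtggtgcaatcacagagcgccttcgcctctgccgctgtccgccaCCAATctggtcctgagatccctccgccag
Insig1, chr5:28071162-28071411, plus strand: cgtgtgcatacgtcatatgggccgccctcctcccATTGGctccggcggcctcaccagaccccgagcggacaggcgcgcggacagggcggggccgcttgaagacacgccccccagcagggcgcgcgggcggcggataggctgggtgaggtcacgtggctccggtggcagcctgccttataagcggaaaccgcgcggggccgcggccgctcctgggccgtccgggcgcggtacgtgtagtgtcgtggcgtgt
The matches are descriptions of letters in these windows, and no binding was measured. Other spellings of the SRE were not searched, so a window without capitals for it may still hold one.

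Total counts ran from 4297832 in KO replicate 1 to 13574397 in KO TGF-β replicate 2, and 3 counts corresponded to between 0.238 and 0.661 CPM, counts scaled to library size. Levels below are CPM scaled by the trimmed mean of M values (TMM). Transcripts of the epithelial genes *Krt8* and *Krt18* had at least 11360 counts in every library and *Cdh1* had 1120 to 5032, whereas *Epcam* had at most 2 counts and *Cldn3* had 0. Of 11 markers of immune, endothelial, stromal and fat cells, 8 fell below the filter on low counts and 0 were called in any comparison; *Cd14*, at 444 to 2294 counts, was the highest of them, and *Ptprc*, *Col3a1*, *Adipoq* and *Plin1* were at 0 to 2. Of 6 known early targets of TGF-β, 5 rose in control cells and 5 in KO cells, and *Id1* fell in control cells. Of 7 epithelial markers tested, *Krt8* and *Krt18* rose with TGF-β in control cells, *Cdh1* was higher in KO than in control cells after TGF-β by 0.61 on the log2 scale, and 0 were called in the other comparisons. The count of *Gm13507*, the annotated *Lnc-Nr6a1* locus, went against the labels in untreated cells: it was 3 and 14 in control, 25 and 35 in control TGF-β, 11 and 7 in KO, and 0 and 0 in KO TGF-β. Directions between genotypes below are therefore between libraries as labelled.

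The 7 genes are listed in the order of the pathway, with the positions of the NCBIM37 annotation whose gene identifiers the table carries. *Idi1* (chr13:8884852-8891641) encodes the isomerase that makes dimethylallyl pyrophosphate. *Fdft1* (chr14:63763990-63796630) encodes squalene synthase, the first step committed to sterols. *Sqle* (chr15:59146632-59162747) encodes squalene epoxidase, *Lss* (chr10:75994333-76019883) lanosterol synthase, and *Cyp51* (chr5:4081145-4104746) the 14α-demethylase that acts on lanosterol. *Insig1* (chr5:28397952-28405201) and *Srebf2* (chr15:81977696-82035806) are the control genes of the set. Near-identical sequence and overlap limit 3 of these counts. *Idi1* has a copy of 99.3% identity on chromosome 2, annotated as the pseudogene *Gm13502*, which collected 118 to 647 reads a library against 90 to 340 for *Idi1*, so the reads of the pair could be split between them. *Fdft1* has a copy of 97.4% identity, *Gm6781*, with 842 reads in the 8 libraries together. *Fdft1* also shares 769 exonic bases with *Ctsb* on the opposite strand, which had 2410 to 6642 counts per library and was called in 0 comparisons. *Insig1* has an unannotated copy of 97.9% identity on chromosome 3. The libraries were made with a stranded kit, and whether counting used the strand is not given in the sources used here.

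Per kilobase of merged exons, the *Cyp51* and *Insig1* transcripts were the most abundant of the 7 in untreated control cells, at 92.2 ± 34.0 and 89.9 ± 40.7 CPM per kb (SD, n = 2). *Sqle* (57.9 ± 15.6), *Srebf2* (53.8 ± 10.9) and *Fdft1* (41.9 ± 19.2) followed, and these neighbours did not differ beyond their spread. *Lss* (19.3 ± 9.93, over merged exons of 10787 bases) and *Idi1* (8.82 ± 2.77) were lowest. After TGF-β, *Cyp51* stood at 203 ± 23.5 CPM per kb in control and 166 ± 12.3 in KO cells, against 130 ± 69.9 and 138 ± 39.6 for *Insig1*. In KO TGF-β cells the ranges of these 2 genes overlapped. The bottom 2 places were held by *Lss* and *Idi1* in all 4 groups.

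Which of these genes respond to 2 h of TGF-β was asked first in control cells. Only *Cyp51* passed the test, rising 2.20-fold. Its level was 498 and 292 CPM in the untreated libraries and 941 and 798 CPM after TGF-β. Both treated libraries stood above both untreated ones, as for 27.4% of all genes in this comparison. The log2 fold change was 1.14 (SE 0.28, 95% interval 0.51 to 1.77) with an adjusted p of 0.0366 in edgeR's quasi-likelihood test. Being 1 of 7 genes, it is to be read against 4.69% of the 13028 genes tested that were called higher (adjusted p below 0.05 and a log2 change above 0.5) and 4.47% called lower. In bulk RNA, a change in the amount per cell and a change in the cells present cannot be told apart. The call was lost without control replicate 1 (log2 1.57, adjusted p 0.0514), without control replicate 2 (0.81, adjusted p 0.186), without control TGF-β replicate 1 (1.00, adjusted p 0.0720) and when the 4 libraries were fitted alone (1.13, adjusted p 0.0573), the log2 change being positive in each.

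**Figure D1:**
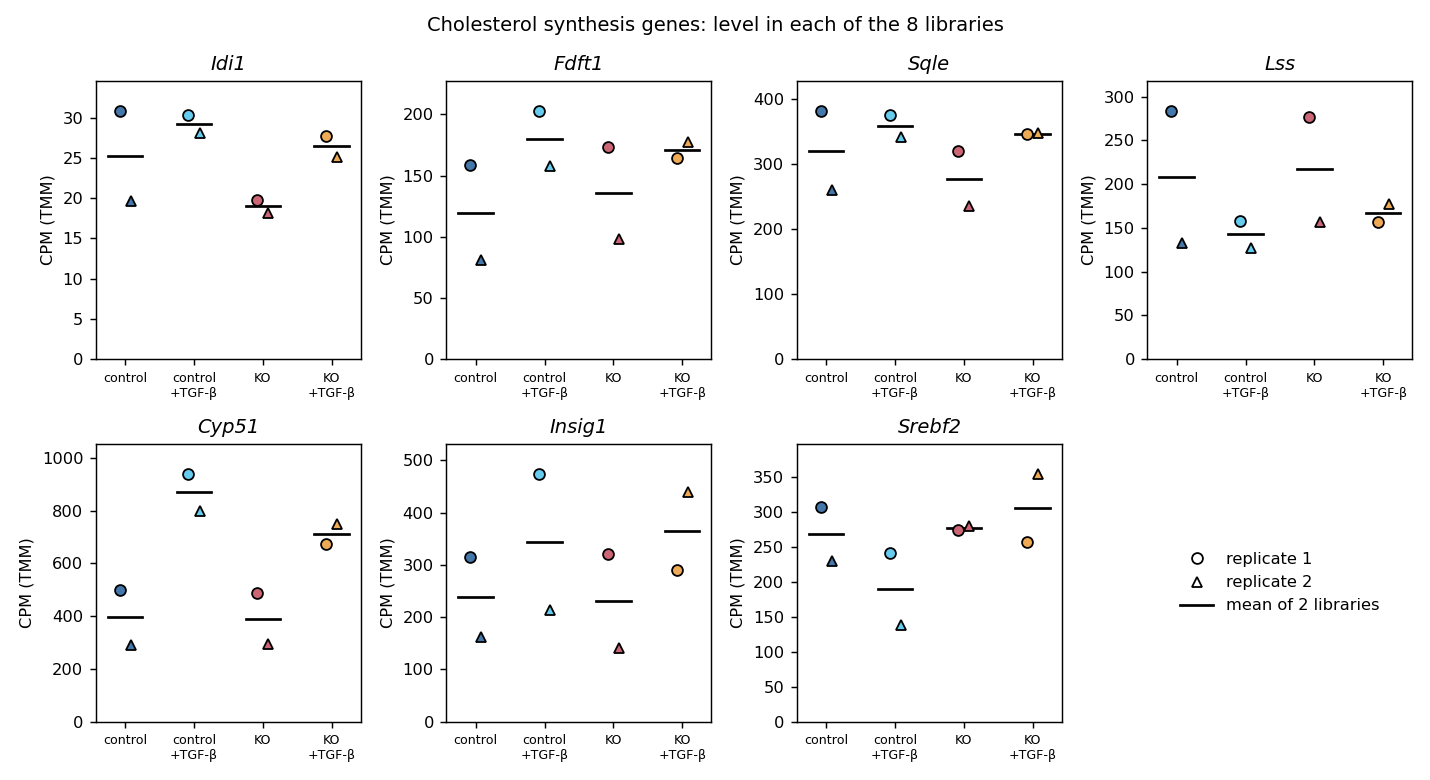
TMM-scaled CPM of the 7 genes (vertical axes from 0, one panel a gene) in control and KO cells, untreated and after 2 h of TGF-β; circles are replicate 1, triangles replicate 2, and bars the mean of the 2 libraries. *Cyp51* is the gene whose treated libraries stand above the untreated ones in both genotypes, and in untreated cells replicate 1 lies above replicate 2 except for *Srebf2* in KO.

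The other steps around squalene moved less than their replicates differed. *Fdft1* stood at 159 and 81.0 CPM untreated and 203 and 157 CPM after TGF-β in control cells, so that the untreated replicate 1 reached the level of a treated library. *Sqle* stood at 382 and 260 CPM untreated and 375 and 342 CPM treated, and the treated values lay inside the untreated range. *Idi1* was measured at 30.9 and 19.7 CPM untreated and 30.4 and 28.1 CPM treated, again inside that range. The log2 changes were 0.59 (SE 0.33) for *Fdft1*, 0.16 (SE 0.20) for *Sqle* and 0.21 (SE 0.22) for *Idi1*, with adjusted p of 0.277, 0.657 and 0.586 in edgeR. Their 95% intervals reached 1.32, 0.62 and 0.72, so a doubling of *Fdft1* lies within its interval.

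*Lss* and *Srebf2* had negative values in control cells. *Lss* was at 284 and 132 CPM untreated and 158 and 127 CPM treated, a log2 change of -0.54 (SE 0.35, adjusted p 0.346 in edgeR) that rests on the untreated replicate 1: without that library the value was 0.11. *Srebf2* was at 307 and 230 CPM untreated and 241 and 138 CPM treated, with a log2 change of -0.50 (SE 0.26, adjusted p 0.253 in edgeR). Without control TGF-β replicate 1 it was called lower, at -0.97 (adjusted p 0.0315). *Insig1*, whose protein retains SCAP, was the most scattered, at 314 and 162 CPM untreated and 475 and 213 CPM treated, and its log2 change of 0.53 carried an SE of 0.47 (adjusted p 0.503 in edgeR). Its treated and untreated libraries overlapped.

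In cells labelled KO, 0 of the 7 genes passed the test, against 4.25% of all genes called higher and 2.57% lower. *Cyp51* was at 489 and 294 CPM untreated and 674 and 748 CPM treated. Both treated libraries again exceeded both untreated ones, and the log2 change was 0.86 (SE 0.28, 95% interval 0.24 to 1.49, adjusted p 0.103 in edgeR). DESeq2 called it higher (log2 0.88, adjusted p 0.0110). *Sqle* (320 and 236 CPM untreated, 346 and 348 CPM treated) and *Idi1* (19.8 and 18.2 CPM untreated, 27.7 and 25.2 CPM treated) also had treated libraries above untreated ones. Their log2 changes were 0.32 (SE 0.20, adjusted p 0.395) and 0.48 (SE 0.23, adjusted p 0.258 in edgeR). Groups without overlap in the higher direction were seen for 28.4% of all genes in this comparison. With the reads of *Gm13502* added, the value of *Idi1* was 0.75 (adjusted p 0.0698), an alternative chosen after the copies had been found; *Gm13502* alone was called higher, at 0.93 (adjusted p 0.0488 in edgeR).

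The remaining 4 genes overlapped between untreated and treated KO cells. *Fdft1* was at 174 and 98.5 CPM untreated and 165 and 178 CPM treated. *Lss* was at 277 and 157 CPM untreated and 157 and 177 CPM treated. *Insig1* was at 320 and 142 CPM untreated and 290 and 439 CPM treated, and *Srebf2* at 274 and 280 CPM untreated and 257 and 354 CPM treated. For each of the 4, the libraries of at least 1 group lay further apart than the 2 means. Their log2 changes were 0.34 (SE 0.33), -0.37 (SE 0.35), 0.66 (SE 0.47) and 0.14 (SE 0.26), in that order. The value of *Insig1* ran from 0.20 without KO replicate 2 to 1.37 without KO replicate 1.

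**Figure D2:**
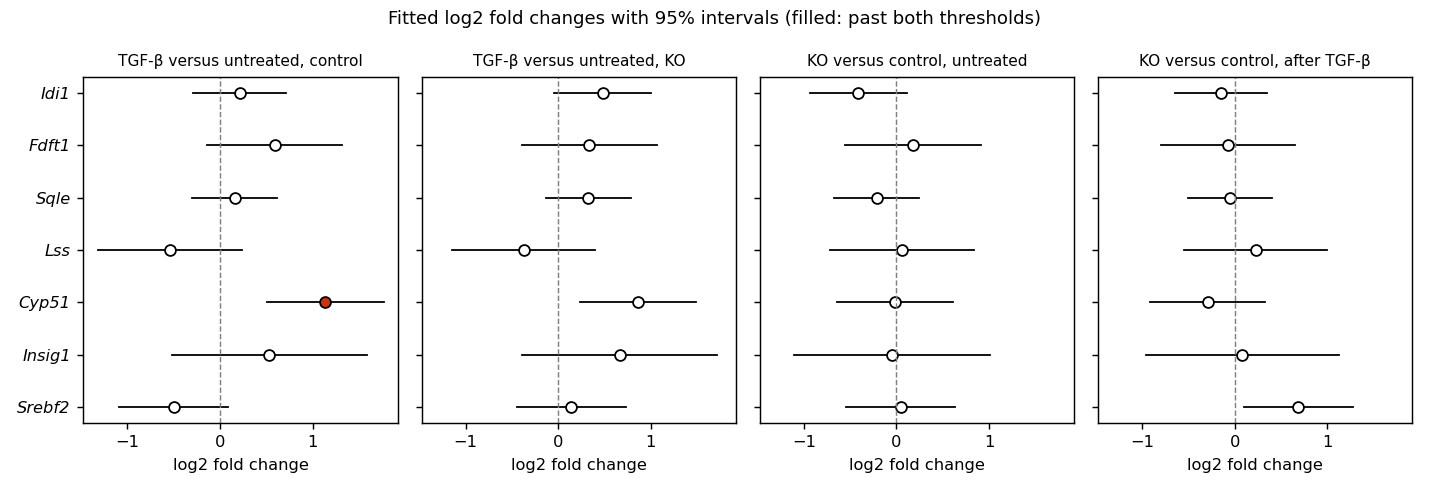
Fitted log2 fold changes (horizontal axes) with 95% intervals for the 7 genes (rows) in the 4 comparisons; a filled circle marks a gene past both thresholds. *Cyp51* with TGF-β in control cells, at 1.14, is the filled circle, and intervals as wide as -0.52 to 1.58 for *Insig1* in that comparison show the limit that 2 libraries a group set.

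Whether the responses differ between genotypes was tested directly, and 0 of the 7 genes were called. For *Cyp51* the KO response minus the control response was -0.27 on the log2 scale (SE 0.39, 95% interval -1.15 to 0.60, adjusted p 0.895 in edgeR), an interval that holds an equal response. The largest value of the 7 was 0.64 for *Srebf2* (SE 0.37, adjusted p 0.656). Over all genes this test called 0 (0%), with 1134 at an unadjusted p below 0.05; DESeq2 called 31, with 898 at an unadjusted p below 0.05.

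Whether the genotypes differ was asked next within each treatment. In untreated cells 0 of the 7 genes were called, against 1.03% of all genes higher and 0.798% lower in KO cells, and the median log2 difference was -0.02 against 0.02 for all genes. *Cyp51* differed by -0.02 (SE 0.28), *Srebf2* by 0.05 (SE 0.26), *Insig1* by -0.05 (SE 0.47) and *Lss* by 0.06 (SE 0.35). The lowest value was -0.41 for *Idi1* (SE 0.23, adjusted p 0.457 in edgeR), whose KO libraries, at 19.8 and 18.2 CPM, lay around the lower control library. Intervals were wide: that of *Cyp51* ran from -0.64 to 0.61 and that of *Insig1* from -1.10 to 1.01.

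After TGF-β, 8.47% of all genes were called higher and 6.57% lower in KO cells, and again 0 of the 7. *Srebf2*, the gene of the regulator itself, came nearest: at 257 and 354 CPM both KO libraries exceeded the control libraries at 241 and 138 CPM, and the log2 difference was 0.69 (SE 0.26, 95% interval 0.10 to 1.28, adjusted p 0.107 in edgeR). It was called by DESeq2 (0.69, adjusted p 0.0378) and without control TGF-β replicate 1 (1.16, adjusted p 0.0111). Against that, *Cyp51* was lower in both KO libraries (674 and 748 against 941 and 798 CPM), with a log2 difference of -0.29 (SE 0.28, adjusted p 0.512 in edgeR). *Idi1* was lower in both KO libraries by 0.15 (log2 -0.15, SE 0.22). Libraries without overlap, all higher in KO for 1 and all lower for 2 of the 7, were seen for 28.4% and 27.4% of all genes. *Sqle*, *Fdft1*, *Insig1* and *Lss* lay between -0.07 and 0.23 with overlapping libraries. Values of this comparison share the treated libraries with the responses above.

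The spread between replicates went mostly one way for these genes. In untreated control cells replicate 1 exceeded replicate 2 for 7 of 7 genes, by a median of 0.77 on the log2 CPM scale, from 0.42 for *Srebf2* to 1.10 for *Lss*. The median over all tested genes was 0.01 in this group and lay between -0.02 and 0.01 in the others. The direction was shared by 7 of 7 genes in control TGF-β (median 0.31) and by 6 of 7 in KO (median 0.73), *Srebf2* in KO being the exception at -0.03. In KO TGF-β it was replicate 2 that was higher for 6 of 7 genes, with a median of -0.15. *Insig1* held the widest gaps in control TGF-β, KO and KO TGF-β, at 1.16, 1.17 and -0.59. Replicate numbers name libraries and carry no order, and what differed between the libraries of a group was not tested.

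Among the other 15 enzymes of the route, replicate 1 was higher for 15 of 15 in control (median 0.77), 14 in control TGF-β (median 0.47), 15 in KO (median 0.51) and 8 in KO TGF-β (median 0.0006). *Hsd17b7*, an enzyme of a late step, differed by 0.85, 0.75, 0.96 and -0.40 in these groups, and *Msmo1* by 0.84, 0.32, 0.64 and 0.0006. Among the 8 tested genes of uptake and transport it was higher for 7, 7, 7 and 1 in the same order of groups, with medians of 0.39, 0.33, 0.25 and -0.21, so that replicate 2 was the higher one in KO TGF-β for most of them, as for the 7 genes above. Of the 10 fatty acid synthesis genes, replicate 1 was higher for 9, 4, 9 and 7, with medians of 0.31, -0.07, 0.21 and 0.09. The list of SREBP controllers had 2, 4, 4 and 4 of 7 higher in replicate 1.

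**Figure D3:**
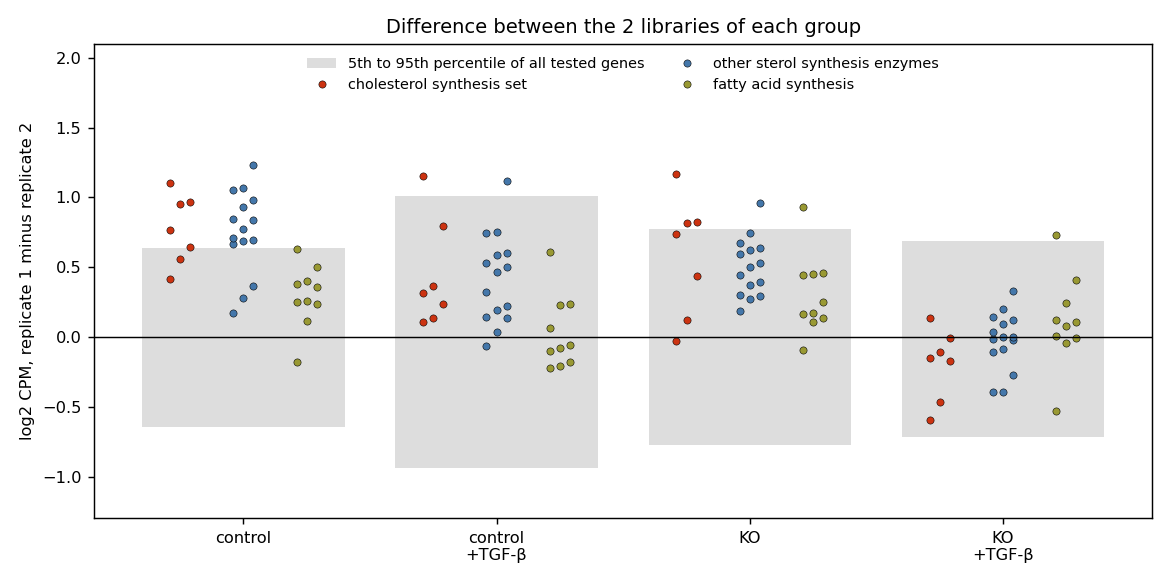
Difference in log2 CPM between replicate 1 and replicate 2 (vertical axis) in each group (horizontal axis), one point a gene; red, the 7 cholesterol genes, blue, 15 other sterol synthesis enzymes, olive, 10 fatty acid synthesis genes, and grey, the middle 90% of all tested genes. The sterol points lie mostly above 0 in 3 groups, with medians of the 7 at 0.77, 0.31 and 0.73, and around or below 0 in KO TGF-β (-0.15).

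Across the 8 libraries, *Fdft1*, *Sqle* and *Insig1* followed the mean of the other genes most closely, with Pearson's r of 0.89, 0.90 and 0.92 on log2 CPM. *Cyp51* (0.69) and *Idi1* (0.66) came next. *Lss* (0.37) and *Srebf2* (0.14) stood apart, and the 2 of them were nearer to each other (0.58) than to *Cyp51* (-0.05 and -0.20). These values describe 8 libraries that differ in treatment, genotype and depth. In the mean profile of the 7, each gene scaled to unit SD, control replicate 2 (-1.14) and KO replicate 2 (-1.05) were lowest, and control TGF-β replicate 1 (0.70), control replicate 1 (0.67) and KO TGF-β replicate 2 (0.60) were highest.

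Among all other tested genes, the 10 most like that profile included *Stard4*, a cytosolic sterol carrier and known SREBP2 target, in first place (r = 0.96), at 142 and 110 CPM in control, 134 and 122 in control TGF-β, 127 and 107 in KO, and 138 and 140 in KO TGF-β. Sterol enzymes among the 10 included *Hsd17b7* (0.94), *Msmo1* (0.90, listed as *Sc4mol*) and *Pmvk* (0.89). Genes of other functions were *Lrrc59* (0.93), *Vps37d* (0.93), *Ndufa8* (0.90) and *H2-Q10* (0.90). Of these, *Vps37d* lay at 0.12 to 1.21 CPM and *H2-Q10* at 0.40 to 3.19 CPM. *Gm6781* (0.90) is the copy of *Fdft1*, a gene of the profile, and reads could be split between the pair. *Nsdhl* ranked 17 of 13021 genes, whereas *Lbr* ranked 5019.

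Along the rest of the route 0 of 15 enzymes were called in any of the 5 tests; the shares of all genes called, given above, were 8.47% or less in each direction, so 0 of 15 is near the background. With TGF-β in control cells their median log2 change was 0.33, against 0.02 for all genes, with 8 above 0 and 7 below. *Sc5d*, the desaturase of a late step, came nearest in both genotypes, at 142 and 110 CPM untreated and 207 and 177 CPM treated in control, and 125 and 94.5 against 175 and 164 CPM in KO. Neither pair of groups overlapped, as for 27.4% of all genes in the higher direction in control and 28.4% in KO. The log2 changes of *Sc5d* were 0.61 (SE 0.18, adjusted p 0.0704) and 0.63 (SE 0.19, adjusted p 0.0754 in edgeR). *Dhcr7*, which makes cholesterol from 7-dehydrocholesterol, had the lowest values, -0.72 (SE 0.28, adjusted p 0.137) and -0.47 (SE 0.28, adjusted p 0.368 in edgeR). All its treated libraries lay below the untreated ones in both genotypes, as for 26.3% of all genes in control and 28.3% in KO.

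The responses of the 2 genotypes rest on separate libraries and can be set side by side. Over the 22 sterol genes the log2 changes in control and KO cells had the same sign for 16 (72.7%), 12 above 0 and 4 below, with Pearson's r of 0.85 across genes. Over all 13028 genes the sign was shared by 68.3% and r was 0.63; the 15 other enzymes alone shared it for 10 (66.7%), so the share of signs was near that of all genes. Genes are not independent replicates, and the value describes this list and these libraries only. *Cyp51*, *Hsd17b7*, *Sc5d*, *Msmo1* and *Nsdhl* lay above 0 in both genotypes, and *Dhcr7*, *Lss*, *Mvk* and *Lbr* below 0 in both. *Msmo1* and *Nsdhl* act with *Cyp51* in the removal of the extra methyl groups of lanosterol; their values were 0.58 and 0.51 in control and 0.35 and 0.47 in KO cells, none of them called.

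**Figure D4:**
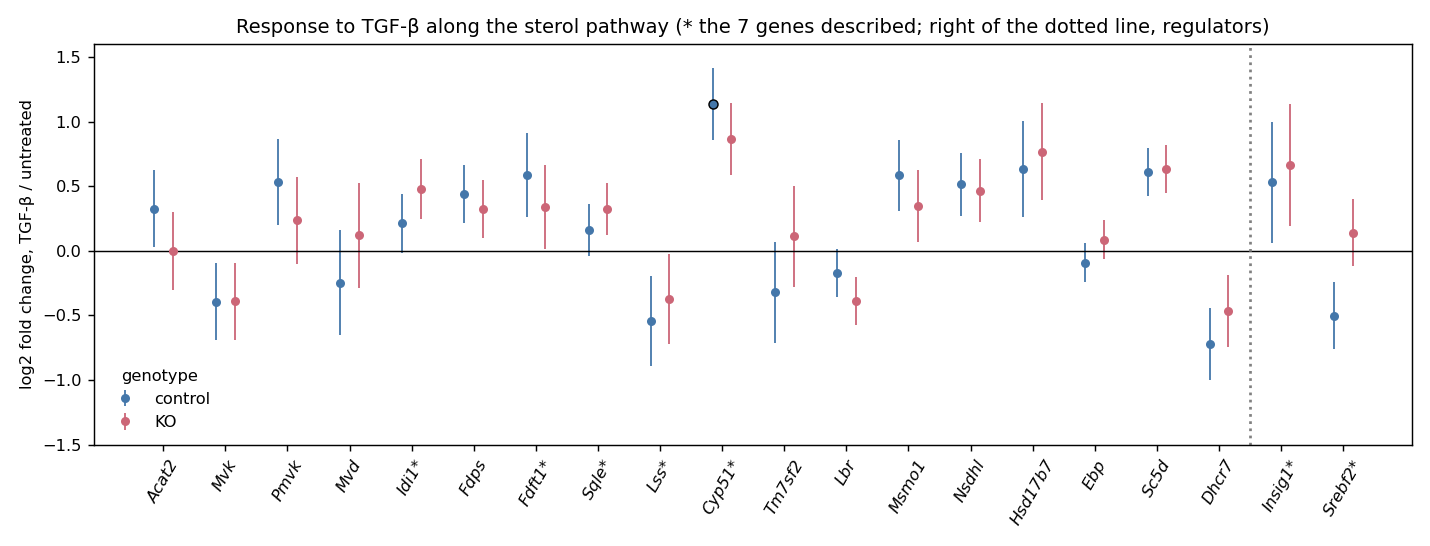
Log2 fold change with TGF-β (vertical axis, points with SE bars) of 18 enzymes in the order of the route and of *Insig1* and *Srebf2*, blue for control and red for KO; the black outline marks the called value and asterisks the 7 genes. *Cyp51* stands highest in both genotypes, at 1.14 and 0.86, and *Dhcr7* lowest, at -0.72 and -0.47.

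Genes of uptake and transport gave 0 calls among 8 tested with TGF-β in control cells, which is near the background of 4.69% of all genes higher and 4.47% lower, with a median log2 change of -0.24. In KO cells 1 of 8 was called higher, against 4.25% of all genes, and 0 lower, against 2.57%. Between untreated genotypes 0 were called, near the background of 1.03% of all genes higher and 0.798% lower. After TGF-β 2 were called higher, against 8.47%, and 1 lower, against 6.57%, and not each of these is named here. *Npc1*, the lysosomal cholesterol exporter, was higher in KO cells after TGF-β, at 63.4 and 81.1 against 47.4 and 42.0 CPM in control (log2 0.69, SE 0.18, adjusted p 0.0320). The HDL receptor gene *Scarb1* was lower, at 13.8 and 14.2 against 25.7 and 20.0 CPM (log2 -0.71, SE 0.20, adjusted p 0.0442 in edgeR). Neither pair of groups overlapped, as for 28.4% of all genes in the higher and 27.4% in the lower direction. The call of *Scarb1* was lost in 11 of 14 alternatives and that of *Npc1* in 6.

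Of the 7 control genes around SREBP, 2 were called lower with TGF-β in control cells, against 4.47% of all genes, and 0 higher, against 4.69%. Their median log2 change was 0.06, with 4 above 0 and 3 below. *Srebf1* fell from 159 and 131 to 67.2 and 59.8 CPM (log2 -1.19, SE 0.16, adjusted p 0.00308), and *Insig2* from 35.7 and 42.5 to 19.1 and 26.4 CPM (log2 -0.78, SE 0.20, adjusted p 0.0427 in edgeR). The call of *Insig2* was lost in 7 of 14 alternatives, with adjusted p up to 0.218. In KO cells 0 of 7 were called, near the background of 4.25% of all genes higher and 2.57% lower. There *Srebf1* was at 196 and 170 CPM untreated and 172 and 155 CPM treated (log2 -0.17, SE 0.16), and *Insig2* changed by -0.07 (SE 0.20). The difference between the 2 responses was 1.02 for *Srebf1* (SE 0.22, unadjusted p 0.00110, adjusted p 0.430) and 0.72 for *Insig2* (SE 0.28, adjusted p 0.520 in edgeR), neither called. After TGF-β both were higher in KO than in control cells, *Srebf1* by 1.36 (SE 0.16, adjusted p 0.00159) and *Insig2* by 0.79 (SE 0.20, adjusted p 0.0294; lost in 6 of 14 alternatives), 2 of 7 against 8.47% of all genes, and 0 of 7 were called lower. Untreated, 0 of 7 were called, near the background of 1.03% of all genes higher and 0.798% lower.

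Of the 10 fatty acid synthesis genes, 2 fell with TGF-β in control cells, against 4.47% of all genes called lower, and 0 rose, against 4.69%. *Fasn*, the fatty acid synthase, fell from 707 and 457 to 266 and 174 CPM (log2 -1.40, SE 0.27, adjusted p 0.0154), and the desaturase gene *Scd2* from 4397 and 3438 to 2147 and 2436 CPM (log2 -0.77, SE 0.20, adjusted p 0.0453 in edgeR). The call of *Scd2* was lost in 7 of 14 alternatives, with adjusted p up to 0.274, and that of *Fasn* in 1, without control replicate 1 (adjusted p 0.139). In KO cells 0 of 10 were called, near the background of 4.25% of all genes higher and 2.57% lower. The difference between the 2 responses was not called, at 1.05 for *Fasn* (SE 0.37, adjusted p 0.498) and 0.53 for *Scd2* (SE 0.29, adjusted p 0.632 in edgeR). The median of the list was -0.20 in control and -0.04 in KO cells. *Scd1*, a related desaturase, was lower in KO libraries under both treatments, at 30.6 and 22.3 against 197 and 149 CPM untreated and at 37.2 and 22.3 against 113 and 117 CPM after TGF-β (log2 -2.72, adjusted p 0.00167, and -1.95, adjusted p 0.00267). It was the 1 gene of the 7 lists on sterol and lipid routes called between genotypes in untreated cells, where 0.798% of all genes were called lower and 1.03% higher. After TGF-β *Fasn* was higher in KO cells by 1.11 (SE 0.27, adjusted p 0.0240; lost in 3 of 14 alternatives, with adjusted p up to 0.136), so that 1 of 10 was called higher, against 8.47% of all genes, and 1 lower, against 6.57%.

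The LXR, efflux and storage list held 4 tested genes of 6, *Abca1* and *Abcg1* being below the filter. It gave 0 calls with TGF-β in either genotype, near the background. That background was 4.69% of all genes higher and 4.47% lower in control, and 4.25% and 2.57% in KO. After TGF-β, 2 of 4 were higher in KO cells, against 8.47% of all genes: *Soat1*, which esterifies cholesterol, by 0.67 (adjusted p 0.0162) and *Lpcat3* by 0.71 (adjusted p 0.0240 in edgeR), calls lost in 3 and 4 of 14 alternatives. The branches that use the same isoprenoids for prenylation, dolichol and ubiquinone gave 0 calls among 11 with TGF-β in either genotype, near the same background. Between genotypes after TGF-β they gave 3, 1 higher in KO cells against 8.47% of all genes and 2 lower against 6.57%. *Nus1*, of dolichol synthesis, was higher in KO by 0.69 (adjusted p 0.0244), while *Pdss1*, of ubiquinone synthesis, and *Rabggtb*, a prenyltransferase subunit, differed by -0.80 (adjusted p 0.0233) and -0.78 (adjusted p 0.00832 in edgeR). Of 14 alternatives, the call was lost in 6 for *Nus1*, 4 for *Pdss1* and 2 for *Rabggtb*.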

How the data were processed

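RNA from 8 libraries of NMuMG cells (2 per group, 4 groups) was sequenced. The labels give a total RNA kit and 2 × 75 bp reads, the study's methods an mRNA kit and single-end reads of 75 bp; the conflict was not settled, and both kits are stranded. The authors deposited raw gene counts; the submitters' notes name HISAT2, limma and the build mm10, the study's methods alignment with subjunc to mm10 and mm9, removal of duplicate reads and tests in DESeq2, and which of these made the counts was not settled. The 37310 rows carry the identifiers of GENCODE vM1, in its order, an annotation of NCBIM37 (mm9). The counting tool, its use of strand and its handling of reads with several matches are not given in the sources used here. The study's methods call the replicates biological; neither they nor the labels say whether these were separate cultures or clones, so p-values measure the spread between these libraries.

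The 13028 genes kept by filterByExpr were fitted with edgeR 4.0.16 (TMM, quasi-likelihood F tests with 4 residual degrees of freedom, 1 model of 4 groups, no block). Adjusted p-values are Benjamini-Hochberg over all 13028; a gene was called at adjusted p below 0.05 and an absolute log2 change above 0.5, and the difference between responses by adjusted p alone. SE is the absolute log2 change over the root of F. Intervals and floors cover the spread or counting error of these libraries only. The script was tested on simulated data. Likeness is Pearson's r on log2 CPM (prior count 2). Named genes were all members, and in each other list the genes called in any 2-group comparison, at most 6, with the 10 genes most like the members' mean profile; *Sc5d*, *Dhcr7* and the other uncalled genes given with values, and marker genes, were chosen after their values were seen. Some listed genes enter counts and medians but are not reported here. Members and lists were chosen with earlier results of these data known. Copies were sought with blastn 2.17.0. Alternatives were DESeq2 1.42.0, other size factors, no filter, a replicate block, separate fits, no fold threshold and each library left out.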

Additional observations from a re-analysis of the deposited data

How the results depend on the processing

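Each comparison rests on 2 libraries a group, and leaving 1 out assumes that the lone library varies like the other groups. Genes called, with each library left out in turn, ran from 145 to 1484 (TGF-β in control, 1194 in the main fit), 136 to 1381 (TGF-β in KO, 889), 42 to 390 (genotypes untreated, 238), 477 to 2762 (genotypes after TGF-β, 1959) and 0 to 6 (difference of responses, 0). Of the 7 genes described, 0 to 1 were called with TGF-β in control and 0 to 1 between genotypes after TGF-β when a library was left out, and 0 in the other tests. With no filter on low counts, 2021, 1832, 756 and 211 genes were called with TGF-β in control, in KO, between untreated genotypes and for the difference of responses; 5 of the 7 were then called in control (*Fdft1*, *Lss*, *Cyp51*, *Insig1* and *Srebf2*), 2 in KO (*Cyp51* and *Insig1*) and 1 between genotypes after TGF-β (*Srebf2*). DESeq2 called 401 genes between untreated genotypes and 31 for the difference of responses, and 1 of the 7 in KO (*Cyp51*) and after TGF-β (*Srebf2*). Fitting only the 4 libraries of a comparison called 470 genes and 0 of the 7 with TGF-β in control, 804 between untreated genotypes and 410 after TGF-β. The cause of these shifts was not tested. Other size factors and no fold threshold changed no call among the 7. *Srebf1* and *Scd1* kept their calls in every alternative run; of 14 alternatives each, the other called genes named in those lists lost their calls in 1 (*Fasn*, TGF-β in control) to 11 (*Scarb1*), *Insig2* and *Scd2* with TGF-β in control in 7.

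Whether same replicate numbers mark paired libraries was not settled. Correlations of deviations from group means ran from -0.47 (control TGF-β with KO TGF-β) to 0.30 (control with control TGF-β). With a replicate block 831, 676, 150 and 1490 genes were called in the 4 comparisons, the untreated genotypes moving by over 1.5 times, and *Cyp51* stayed the 1 called gene of the 7 (log2 1.17, adjusted p 0.0266 in edgeR); *Sc5d* was then called higher with TGF-β in both genotypes, and *Insig2* (TGF-β in control), *Npc1* and *Scarb1* lost their calls. A crossed replicate block, chosen after seeing the data, called 2809 genes and 1 of the 7 (*Srebf2*) between genotypes after TGF-β.

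Leaving out single libraries turned the sign of uncalled log2 values, which then ran over these ranges. With TGF-β in control they were -0.075 to 0.57 (*Idi1*), -0.090 to 0.46 (*Sqle*), -0.99 to 0.11 (*Lss*) and -0.17 to 1.09 (*Insig1*); with TGF-β in KO, -0.012 to 0.80 (*Fdft1*), -0.72 to 0.10 (*Lss*) and -0.081 to 0.38 (*Srebf2*). Between untreated genotypes they were -0.28 to 0.74 (*Fdft1*), -0.46 to 0.090 (*Sqle*), -0.41 to 0.71 (*Lss*), -0.43 to 0.41 (*Cyp51*), -0.75 to 0.50 (*Insig1*) and -0.15 to 0.26 (*Srebf2*); after TGF-β, -0.24 to 0.14 (*Fdft1*), -0.11 to 0.040 (*Sqle*) and -0.38 to 0.79 (*Insig1*). For the difference of responses they were -0.087 to 0.56 (*Idi1*), -0.81 to 0.21 (*Fdft1*), -0.13 to 0.42 (*Sqle*), -0.48 to 0.64 (*Lss*), -0.70 to 0.14 (*Cyp51*) and -0.41 to 0.86 (*Insig1*).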
